A study of Caenorhabditis elegans with 2 samples.

Results

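The DNA replication licensing and S-phase genes described here are 10 protein-coding genes of Caenorhabditis elegans, taken by their symbols from the deposited table of all genes. They are 10 of 46233 genes in that table: the helicase subunit genes mcm-2, mcm-3, mcm-4, mcm-5, mcm-6 and mcm-7, the loading factor genes cdt-1 and cdc-6, the sliding clamp gene pcn-1 and the ribonucleotide reductase gene rnr-1. The description field of the table names each as the protein of the same symbol, and all 10 averaged 1 FPKM or more over both libraries. FPKM stands for fragments scaled to transcript length and to library size, so that it is a level per length and can be set side by side between genes.

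The tested library came from strain VC2324, which carries a mutation in flp-6, a gene for FMRFamide-like neuropeptides. The other was made from N2, the wild type strain. Both were made from total RNA of whole larvae at the fourth larval stage (L4), with cultures kept at 25 °C. Each genotype has 1 library, so no value has an error between cultures, no test was made, and every difference below is one between 2 libraries. The flp-6 mutation itself and the number of animals per library are not stated in the labels.

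Licensing is the step that fits a chromosome for one round of replication. The origin recognition complex, CDC-6 and CDT-1 load the ring of MCM proteins onto DNA before S phase. In S phase the ring is joined by CDC-45 and the GINS proteins and unwinds DNA as the replicative helicase. The clamp PCNA then holds the polymerases on their template, and ribonucleotide reductase supplies the deoxynucleotides. In an L4 larva the germ line proliferates, and the vulval precursor lineage and other somatic blast cells also divide.

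The libraries matched their labels at the targeted gene, and FPKM as deposited carried a trend with transcript length. The flp-6 gene had 4.398 FPKM in the mutant library, against 57.95 FPKM in N2. The sum of FPKM over all genes was 989473 for the mutant library and 1414570 for N2, and the number of reads behind them is unknown. For the 13436 genes that averaged 1 FPKM or more, the median log2 difference was -0.10, with quartiles of -0.61 and 0.41. A difference here is log2 of (mutant FPKM + 1) over (N2 FPKM + 1), a scale that understates the change of low genes. Across 12999 of these genes, which are not independent replicates, the difference had a Spearman's rho of 0.35 with the length of the longest annotated transcript and of -0.27 with mean FPKM. For this reason the differences of the 10 genes, and those of some other genes, are also given length-centred. A length-centred difference is relative to the median of the roughly 325 genes in the same of 40 length bins. The length trend and, except for shares and ratios within a library, the scale of the libraries touch the results below, and their part in them was not tested.

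All 10 licensing and S-phase genes lay within 2-fold between the libraries, and as deposited 8 of 10 were higher in the mutant library by any amount, a count that was 10 with both libraries scaled to one sum and 7 after length centring. Over all 13436 genes, 10.5% were higher by 2-fold or more, 11.3% lower by 2-fold or more and 44.3% higher by any amount. With one sum 4 of the 10 also passed 2-fold. The median log2 difference of the 10 genes was 0.41 as deposited, 0.92 with one sum and 0.63 with the same upper quartile. As deposited they ran between -0.28 for cdc-6 and 0.70 for mcm-2. The transcripts of 8 of the 10 are longer than 2000 nt. Among 788 genes of 2400 to 2900 nt, a window chosen after the values were seen, 72.3% were higher by any amount, with a median of 0.25. After length centring 7 of the 10 genes were higher by any amount, where 49.8% of all genes were, and their median was 0.19. Under that correction, too, 0 of the 10 passed 2-fold in either direction. The 10 genes together had 1393 FPKM in the mutant library and 1168 FPKM in N2.

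**Figure D1:**
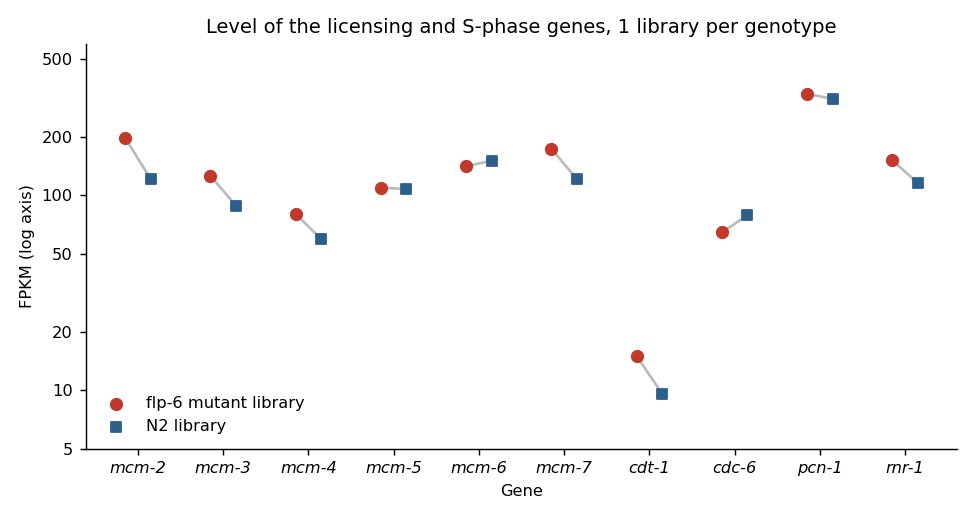
FPKM on a log axis for each of the 10 licensing and S-phase genes, with 1 point for the flp-6 mutant library (circle) and 1 for the N2 library (square); no error bar is possible with 1 library per genotype. As deposited, mcm-6 and cdc-6 sit lower in the mutant library, and cdt-1 is the lowest of the 10 in both libraries, at 14.97 FPKM in the mutant and 9.61 FPKM in N2.

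The 6 MCM genes encode the subunits of the helicase ring, which in the assembled complex stand in equal number. The mcm-2 gene (WBGene00003154; chromosome II, 12001509 to 12006625, reverse strand) had 197.5 FPKM in the mutant library and 121.5 FPKM in N2. That difference of 0.70, or 0.44 length-centred, was the highest of the 10 genes and stood at percentile 83.7 of all genes kept. The mcm-7 gene (WBGene00003159; chromosome V, 4347166 to 4349768, forward strand) had 173.8 FPKM in the mutant library and 121.3 FPKM in N2. Its difference of 0.52, or 0.34 length-centred, was close to that of mcm-3 (WBGene00003155; chromosome V, 15056719 to 15059599, reverse strand), at 0.51. The mcm-3 gene had 126.4 FPKM in the mutant library, against 88.6 FPKM in N2, and its length-centred difference was 0.24.

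The remaining MCM genes differed less as deposited, while length-centred mcm-6 differed by more in size than mcm-3 and mcm-7. The mcm-4 gene (WBGene00003156; chromosome I, 2318291 to 2321817, reverse strand), which C. elegans genetics also knows as lin-6, had 80.5 FPKM in the mutant library and 59.6 FPKM in N2, a difference of 0.43 or, length-centred, 0.15. For mcm-5 (WBGene00003157; chromosome III, 4288264 to 4291266, reverse strand) the values were nearly equal, at 109.6 FPKM in the mutant library and 107.8 FPKM in N2, with a difference of 0.02 that was -0.16 length-centred. The mcm-6 gene (WBGene00003158; chromosome III, 9794367 to 9798644, forward strand) was the one subunit gene with a lower value in the mutant, with 141.3 FPKM there and 150.7 FPKM in N2. Its difference was -0.09, or -0.37 length-centred.

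Taken as a set, the 6 subunit genes together had 829.1 FPKM in the mutant library and 649.5 FPKM in N2, a ratio of 1.28. They stayed within a narrow band in both libraries. The highest of the 6 was 2.45 times the lowest in the mutant library and 2.53 times the lowest in N2, and their coefficient of variation was 30.8% in the mutant and 28.9% in N2. The order within the band was not the same. In the mutant library it ran mcm-2, mcm-7, mcm-6, mcm-3, mcm-5, mcm-4 from high to low, and in N2 it ran mcm-6, mcm-2, mcm-7, mcm-5, mcm-3, mcm-4. In N2 mcm-2 and mcm-7 were nearly equal, at 121.5 and 121.3 FPKM. The least abundant subunit transcript was mcm-4 in both.

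Shares within a library do not depend on how the libraries are scaled. Transcripts of mcm-2 made up 23.8% of the summed MCM FPKM in the mutant library and 18.7% in N2, and those of mcm-6 made up 17.04% in the mutant and 23.2% in N2. The level of mcm-2 was thus 1.40 times that of mcm-6 in the mutant library and 0.806 times in N2. The mcm-4 share was 9.71% in the mutant and 9.18% in N2. These 6 transcripts are alike in length, between 2418 and 2827 nt, and after length centring mcm-2 stood at 0.44 and mcm-6 at -0.37. No replicate spread is available against which to judge these shifts.

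**Figure D2:**
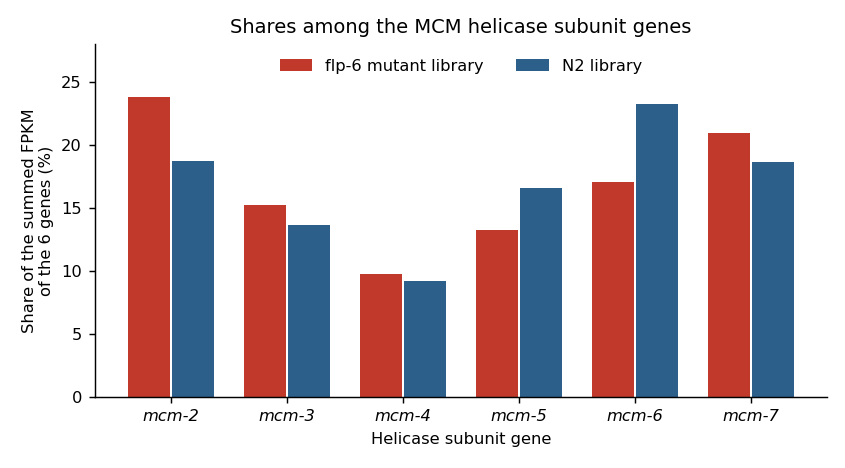
Share of each MCM subunit gene in the summed FPKM of the 6 genes (%), with red bars for the flp-6 mutant library and blue bars for the N2 library. The mcm-2 bar is higher in the mutant library (23.8%, against 18.7% in N2) and the mcm-6 bar lower (17.04%, against 23.2% in N2), while the mcm-4 bars are nearly level.

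As deposited and after length centring, the loading factor genes differed in opposite directions, whereas both were higher in the mutant with the libraries brought to one sum, cdt-1 by 1.07 and cdc-6 by 0.22. CDT-1 brings the MCM ring to the origin, and in C. elegans it is broken down in S phase by the CUL-4 and DDB-1 ubiquitin ligase. The cdt-1 gene (WBGene00000413; chromosome I, 3223160 to 3228104, reverse strand) had 14.97 FPKM in the mutant library and 9.61 FPKM in N2, a difference of 0.59. It was the lowest of the 10 genes in both libraries, at percentile 50.1 of all genes kept in the mutant and 42.7 in N2, whereas the other 9 all stood at percentile 76.3 or above. CDC-6 is an ATPase that acts with the origin recognition complex. The cdc-6 gene (WBGene00000382; chromosome I, 4268070 to 4270287, reverse strand) had 64.6 FPKM in the mutant library and 79.0 FPKM in N2, and its difference of -0.28 was the lowest of the 10. Its transcript of 1754 nt is shorter than that of cdt-1, at 2651 nt. Length-centred, cdc-6 stood at -0.24 and cdt-1 at 0.32. Per length, cdc-6 transcripts were 4.32 times as abundant as those of cdt-1 in the mutant library and 8.21 times in N2.

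The clamp gene pcn-1 had the highest level of the 10 genes in both libraries. PCN-1 is the worm's PCNA, a ring that slides on DNA and tethers the polymerases. The pcn-1 gene (WBGene00003955; chromosome IV, 4047937 to 4049448, reverse strand) had 332.4 FPKM in the mutant library and 313.7 FPKM in N2, and stood at percentile 96.8 of all genes kept in the mutant and 95.1 in N2. Its difference was 0.08. With 991 nt it has the shortest transcript of the 10, and the median difference of the 325 genes in its length bin was -0.45, with quartiles of -0.83 and 0.05. The value of pcn-1 thus lay just over the upper quartile of genes of its length, and its length-centred difference of 0.53 was the highest of the 10.

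Ribonucleotide reductase has a large and a small subunit, encoded by rnr-1 and rnr-2. The rnr-1 gene (WBGene00004391; chromosome III, 9225339 to 9228798, reverse strand) had 151.7 FPKM in the mutant library and 115.9 FPKM in N2, a difference of 0.39. The partner gene rnr-2, of the list of nucleotide supply genes, had 517.2 FPKM in the mutant library and 1274 FPKM in N2, a difference of -1.30. Within a library, rnr-2 transcripts were 3.41 times as abundant per length as rnr-1 transcripts in the mutant, and 10.99 times in N2. The rnr-1 transcript has 2633 nt and that of rnr-2 has 1386 nt. After length centring the differences were 0.11 for rnr-1 and -1.04 for rnr-2, so the subunit genes also stood apart relative to genes of their own lengths. With centring by length and by mean FPKM together, a calculation added after the data had been seen, rnr-2 stood at -0.80 and rnr-1 at 0.15.

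**Figure D3:**
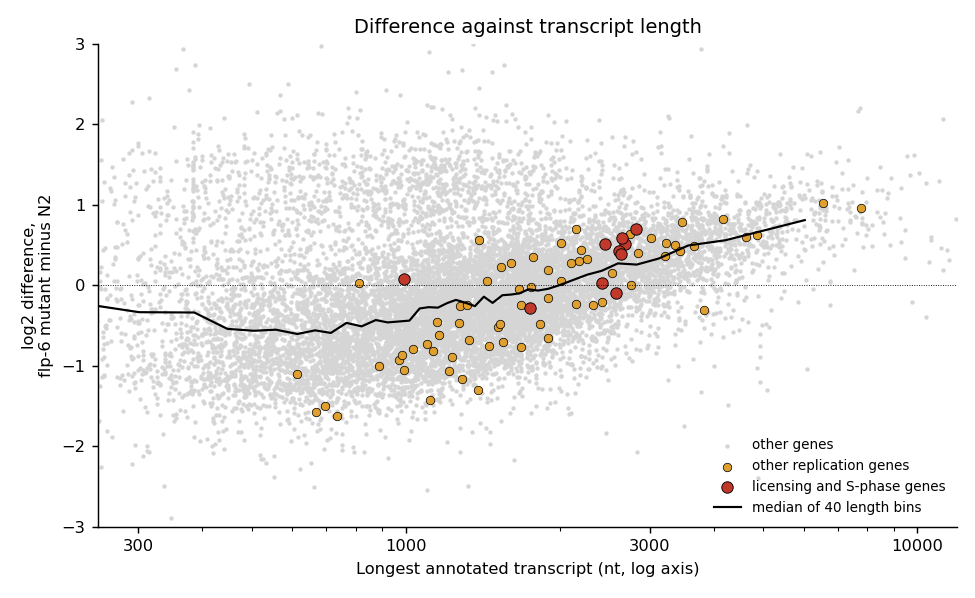
Log2 difference, flp-6 mutant minus N2, against the length of the longest annotated transcript (nt, log axis) for 12999 genes, of which 401 lie outside the axes; red points are the 10 licensing and S-phase genes, orange points are other replication genes and the line joins the medians of 40 length bins. Most red points sit at 2400 to 2900 nt, where the line is above 0, and pcn-1 at 991 nt lies above it.

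In the authors' deposited table the 10 genes had p-values between 0.395 and 0.969 and q-values between 0.987 and 0.996. Those statistics compare one library with the other, not the genotypes. Of the 13436 genes kept, 4.34% had a p-value under 0.05 in the authors' deposited table, and 0 of the 10 did. The authors' deposited list of 715 genes holds the genes with a p-value under 0.05 and a ratio of at least 2-fold, and 0 of the 10 are in it.

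The annotation puts other genes next to or across 6 of the 10. On the opposite strand, C25D7.16 shares 73 bases of exon with mcm-3 and had 5.63 FPKM in the mutant library and 2.99 FPKM in N2. The gene ekl-7 shares 28 bases of exon with mcm-4, also on the opposite strand, and had 31.1 FPKM in the mutant library and 25.7 FPKM in N2. The labels do not say whether strand was used in counting, so reads from these stretches cannot be assigned to a gene. Opposite-strand overlaps of mcm-2, mcm-6 and mcm-7 were of 4 to 18 bases with genes under 1 FPKM in both libraries. A small nucleolar RNA gene within rnr-1, T23G5.7, was listed at 0.0001 FPKM in both and shares no exon base with it.

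Markers of the tissues that hold dividing cells were read beside these values. In RNA from whole animals, fewer cells of a type and less RNA per cell cannot be told apart. Of 15 germ line markers, such as glp-1, gld-1 and pgl-1, all averaged 1 FPKM or more, 0 were higher by 2-fold or more and 1 was lower by that much. Their median difference was 0.27, or -0.07 length-centred, and they summed to 1492 FPKM in the mutant library and 1461 FPKM in N2. The 1 lower member was htp-1, for a protein of the meiotic chromosome axis, with 64.4 FPKM in the mutant and 136.3 FPKM in N2. Its difference of -1.07 became -0.85 after length centring. Another axis gene, him-3, fell just inside 2-fold at -0.995, or -0.72 length-centred, with 90.9 FPKM in the mutant and 182.3 FPKM in N2. On the same marker list htp-3 was at -0.13, or -0.27 length-centred. The largest upward difference on the list was 0.91 for gld-2, or 0.35 length-centred. By any amount, 8 of the 15 markers were higher and 7 lower. Oocyte markers had a median of 0.23 over 6 genes and summed to 1565 FPKM in the mutant library and 1575 FPKM in N2. These numbers include the yolk receptor gene rme-2, listed at 0.0001 FPKM, which stands for 0, in the mutant and at 135.7 FPKM in N2. Whether that entry is a loss of transcript or a gap in the quantification was not tested. The other 5 were all higher by any amount after length centring, with a median of 0.38. Of 7 sperm markers, 4 averaged 1 FPKM or more, all 4 were higher by 2-fold or more in the mutant, and the 7 summed to 130.1 FPKM in the mutant and 41.9 FPKM in N2.

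As deposited, the medians of somatic markers differed in sign by tissue, but those of intestine and neuron lay within the quartiles of all genes. Marker medians are given here as deposited and length-centred only, not on the other scales. Of 3 muscle markers, all were higher by 2-fold or more in the mutant library, and they summed to 988.5 FPKM in the mutant and 381.7 FPKM in N2. These are long transcripts, with a median of 6104 nt, and after length centring 0 of 3 passed 2-fold. All 3 remained higher by any amount, with a length-centred median of 0.80. Over 4 intestine markers the median was 0.09, or 0.01 length-centred, with sums of 1030 FPKM in the mutant and 859.8 FPKM in N2. Neuron markers had a median of -0.18 over 4 genes, with sums of 114.2 FPKM in the mutant and 136.7 FPKM in N2. After length centring their median was -0.16, and 2 of the 4 were higher by any amount. The 3 epidermis markers, which are cuticle collagens, summed to 6.65 FPKM in the mutant and 14.7 FPKM in N2. The part of these tissues in the differences of the 10 genes was not tested.

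Other genes of replication were placed in 8 lists by function. Of 69 listed genes 67 were matched, all 67 with a mean of 1 FPKM or more, while cdc-45 and sld-3 were not matched by symbol and are not analysed here. Of the 67, 1 was higher by 2-fold or more in the mutant library and 10 were lower by 2-fold or more, beside the 10.5% and 11.3% of all genes given above. Their median was -0.21. With both libraries brought to one sum 12 were higher by that much and 2 lower, beside 20.5% and 3.1% of all genes. After centring by length and mean FPKM together 0 passed 2-fold in either direction. The higher gene has a long transcript and the 10 lower ones have short transcripts. Of 27 genes over 2000 nt, 23 were higher by any amount and their median was 0.44, close to the 0.41 of the licensing and S-phase genes. Of 40 genes up to 2000 nt, 7 were higher by any amount and their median was -0.67. This split was chosen after the values were seen. No share over all genes was calculated for these length classes, but of all genes of 2400 to 2900 nt, 72.3% were higher by any amount. Length-centred, the median over 2000 nt was 0.15, with 18 of 27 higher. Up to 2000 nt it was -0.41, with 9 of 40 higher. After length centring 0 of the 67 were higher by 2-fold or more and 4 were lower by that much, beside 10.9% higher and 3.15% lower among all genes. Those 4 were psf-1, psf-3, rfc-4 and rnr-2.

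Genes for proteins that mark and guard origins were read next. The list of the origin recognition complex and geminin had a median of -0.15 over 6 genes, or -0.01 length-centred. As deposited 0 were higher and 1 was lower by 2-fold. The lower one was orc-4, with 31.9 FPKM in the mutant library and 67.9 FPKM in N2, a difference of -1.07 that became -0.85 after length centring. Geminin, which binds CDT-1 and holds it inactive, is encoded by gmn-1. It was picked here for that role after its values were seen, and had 135.5 FPKM in the mutant library and 162.2 FPKM in N2. Per length, gmn-1 transcripts were 9.05 times as abundant as those of cdt-1 in the mutant, against 16.9 times in N2. The gmn-1 transcript has 1280 nt and that of cdt-1 has 2651 nt. Length-centred differences were -0.08 for gmn-1 and 0.32 for cdt-1. With centring by length and mean FPKM together they were 0.18 for gmn-1 and 0.35 for cdt-1.

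Another list holds genes that turn the loaded ring into a working helicase. Of its 9 genes, 4 were lower by 2-fold or more and 0 were higher by that much. Its median was -0.75, or -0.50 length-centred. Of the lower ones, 3 encode GINS subunits. The psf-1 gene had 49.8 FPKM in the mutant library and 150.7 FPKM in N2, and psf-3 had 49.6 FPKM in the mutant library and 154.5 FPKM in N2. For psf-2 the values were 4.98 FPKM in the mutant and 11.9 FPKM in N2. The remaining one was T12F5.1, whose current symbol is sld-2, with 36.7 FPKM in the mutant and 74.5 FPKM in N2. The fourth GINS gene, sld-5, lay within 2-fold, with 39.1 FPKM in the mutant library and 60.4 FPKM in N2, a difference of -0.61. The GINS transcripts have 612 nt for psf-2, 668 nt for psf-1, 735 nt for psf-3 and 1163 nt for sld-5. Their length-centred differences were -0.50 for psf-2, -1.02 for psf-1, -1.03 for psf-3 and -0.34 for sld-5. As deposited, the 4 GINS genes were all lower in the mutant library, while the 6 MCM genes had a median of 0.47 and 5 of 6 were higher. After length centring 4 of the 6 MCM genes were higher.

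**Figure D4:**
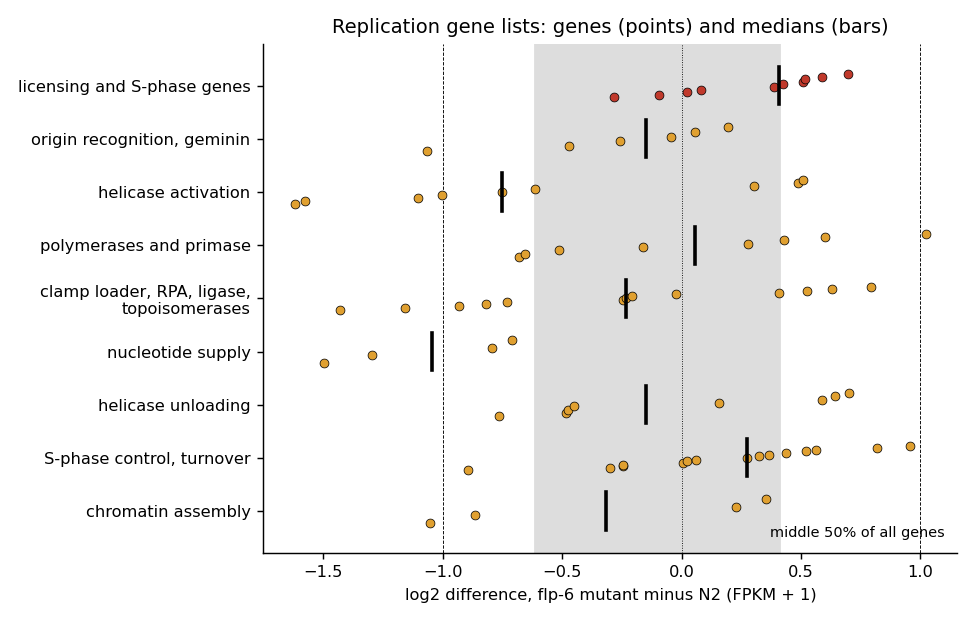
Log2 difference, flp-6 mutant minus N2, for the genes (points) of the licensing and S-phase set and of 8 other replication lists, with each list's median (bar), the middle 50% of all genes (grey band) and 2-fold in either direction (dashed lines). All 10 licensing and S-phase genes lie between the dashed lines, while 4 genes of helicase activation and 2 each of the clamp loader and nucleotide supply lists lie to the left of -1.

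At the fork itself, polymerase and primase genes had a median of 0.06 over 8 genes, with 1 past 2-fold upward and 0 downward. That gene was F33H2.5, whose current symbol is pole-1 and which encodes the catalytic subunit of polymerase epsilon, with 22.2 FPKM in the mutant library and 10.4 FPKM in N2. Its transcript has 6562 nt, and its difference of 1.02 became 0.21 after length centring. The list of the clamp loader, single-strand binding proteins, ligase and topoisomerases had a median of -0.23 over 13 genes, with 2 past 2-fold downward. These were rfc-4, with 132.2 FPKM in the mutant and 358.1 FPKM in N2, and F44B9.8, with 116.7 FPKM in the mutant and 261.8 FPKM in N2. The F44B9.8 difference of -1.16 became -0.94 after length centring. The clamp loader opens PCNA and sets it on DNA. Relative to rfc-4, pcn-1 transcripts were 2.51 times as abundant in the mutant library and 0.876 times in N2. Relative to rfc-1, the large subunit gene, which was added to this comparison for its role after its values were seen, they were 5.34 times as abundant in the mutant and 6.72 times in N2. The transcripts have 991 nt for pcn-1, 1114 nt for rfc-4 and 2841 nt for rfc-1. Length-centred differences were 0.53 for pcn-1, -1.16 for rfc-4 and 0.15 for rfc-1. As deposited pcn-1 at 0.08 lay below rfc-1 at 0.41, an order that length centring reversed.

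Nucleotide supply had the lowest median of the 8 lists, as deposited and after length centring. All 4 of its genes were lower, 2 of them by 2-fold or more, and the median was -1.05, or -0.75 length-centred. Beside rnr-2, the second was dhfr-1, the gene of dihydrofolate reductase, which keeps up the folate used in thymidylate synthesis. It had 69.8 FPKM in the mutant library and 199.0 FPKM in N2, and its difference of -1.50 became -0.91 after length centring. In the authors' deposited list of 715 genes there are 4 of the 67 replication genes, namely rnr-2, dhfr-1, psf-3 and rfc-4. They were all lower in the mutant library, with q-values of 0.951 in the authors' deposited table. Beside that count, 4.34% of all genes kept had a p-value under 0.05 in the authors' deposited table.

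On the scale used here, genes of helicase unloading and of S-phase control lay within 2-fold. With both libraries brought to one sum, 3 of the 8 unloading genes (cul-2, cdc-48.1 and ubxn-3) passed 2-fold upward. So did 3 of the 15 control genes (efl-1, atl-1 and tim-1), beside 20.5% of all genes on that scale. At the end of replication in C. elegans, the CUL-2 and LRR-1 ligase marks the helicase and the CDC-48 ATPase pulls it off. That list had a median of -0.15 over 8 genes. In it npl-4.1, for a cofactor of CDC-48, had 8.81 FPKM in the mutant library and 15.7 FPKM in N2, and ubxn-3, for another cofactor, had 130.3 FPKM in the mutant and 79.8 FPKM in N2. Values for cdc-48.1 were 288.5 FPKM in the mutant and 184.3 FPKM in N2, and for cul-2 they were 97.3 FPKM in the mutant and 64.3 FPKM in N2.

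The 15 genes of S-phase control and licensing turnover had a median of 0.27, and 11 of 15 were higher by any amount, beside 44.3% of all genes. After length centring their median was 0.19 and 10 of 15 were higher by any amount, beside 49.8% of all genes. The checkpoint kinase gene atl-1, the worm's ATR, had 23.98 FPKM in the mutant library and 11.9 FPKM in N2, and its difference of 0.96 became 0.15 after length centring. Without the added 1 FPKM, the ratio of atl-1 in the authors' deposited table is 2.02 and that of cdk-4 is 0.4999. The timeless-related gene tim-1 had 35.9 FPKM in the mutant and 19.9 FPKM in N2, and its difference of 0.82 became 0.26 after length centring. The G1 kinase gene cdk-4 was lower, with 6.08 FPKM in the mutant and 12.2 FPKM in N2. For efl-1, which encodes an E2F family transcription factor, the values were 44.6 FPKM in the mutant and 29.8 FPKM in N2, and its length-centred difference of 0.82 was the highest among the 67 genes. Of the ligase that removes CDT-1, chosen for that role after its values were seen, cul-4 had 37.1 FPKM in the mutant and 36.9 FPKM in N2, and ddb-1 had 54.8 FPKM in the mutant and 67.7 FPKM in N2.

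Chromatin assembly genes, which act behind the fork, had a median of -0.32 over 4 genes, or -0.03 length-centred. The histone chaperone gene asfl-1 was the 1 past 2-fold, with 57.6 FPKM in the mutant library and 120.8 FPKM in N2, a difference of -1.06, or -0.61 length-centred.

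How the libraries are put on one scale decided the sign of some of the 10 differences. With both libraries brought to one FPKM sum, which moves the median of all genes kept by 0.44, all 10 genes were higher in the mutant and 4 passed 2-fold: mcm-2 at 1.21, cdt-1 at 1.07, mcm-7 at 1.03 and mcm-3 at 1.02. On that scale 67.7% of all genes were higher by any amount, 20.5% by 2-fold or more, and 3.1% were lower by 2-fold or more. With the same upper quartile 9 of 10 were higher by any amount, cdc-6 being the exception, and 0 passed 2-fold, beside 54.7% and 13.9% of all genes. Every rescaling moved the differences upward, so a gene higher as deposited could turn lower only after centring. The share of all genes that stayed higher throughout was not calculated. On every scale and after either centring, cdt-1, mcm-2, mcm-3, mcm-4, mcm-7, pcn-1 and rnr-1 were higher in the mutant library. The other three, mcm-5, mcm-6 and cdc-6, changed sign on at least one of them.

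**Figure D5:**
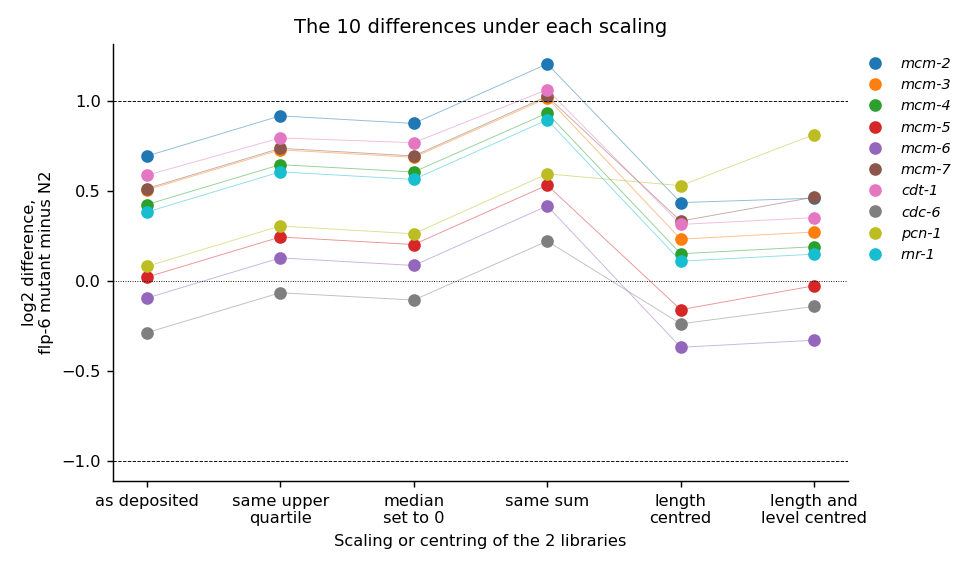
Log2 difference, flp-6 mutant minus N2, of each of the 10 genes (colours) as deposited, under 3 rescalings of the libraries, and after centring by length or by length and level; thin lines join the values of a gene and dashed lines mark 2-fold. Rescaling to the same sum lifts mcm-2, cdt-1, mcm-7 and mcm-3 past 1, and centring by length leaves mcm-6, cdc-6 and mcm-5 below 0.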

How the data were processed

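Total RNA of whole L4 larvae was sequenced in 1 library per genotype, from TruSeq version 2 libraries per the labels' protocols. The submitters' processing notes list TopHat, Cufflinks and WBcel235, without settings. The deposited FPKM values, the ratio and the log2 ratio of mutant over N2, and the p-values and q-values were made by the authors, per the file headers. The authors' table lists 0.0001 in place of 0. The authors' tables of enriched terms were not used.

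Genes were matched by symbol or, for current symbols, through the gene name table. Coordinates and lengths come from the Ensembl annotation of WBcel235, release 115, whose chromosome names match the table. Differences are log2((mutant FPKM + 1)/(N2 FPKM + 1)). Genes that averaged 1 FPKM or more were kept, and 2-fold was the size rule. Length-centred values subtract the median of the gene's length bin. The named genes were the 10 members, and from each other list every gene past 2-fold or otherwise up to 4 with the largest differences. Also named, for their roles and after their values were seen, were gmn-1, rfc-1, cul-4, ddb-1 and sld-5. Members and lists were chosen with earlier results of these data known. Calculations were tested on simulated data. Read depth is unknown, so no counting interval is given. Python 3.11.15, numpy 2.4.6, pandas 2.3.3 and matplotlib 3.10.9 were used.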

Additional observations from a re-analysis of the deposited data

How the results depend on the processing

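With 1 library per genotype nothing could be left out, and a value was called changed when its sign turned or it crossed 2-fold. No paired analysis was possible because each genotype has 1 library and no test was made. For the 10 genes, a pseudocount of 0.1 or 5, the absence of a filter, a minimum mean of 5 FPKM or a 4-fold threshold changed neither the signs nor the counts of 0. With the same sum, 4 were at least 2-fold higher (mcm-2 1.21, cdt-1 1.07, mcm-7 1.03, mcm-3 1.02), mcm-6 turned to 0.42 and cdc-6 to 0.22. With the same upper quartile mcm-6 turned to 0.13, and with the median set to 0 it turned to 0.088. Centring by length turned mcm-5 to -0.16, and centring by length and level, added after the data had been seen, turned it to -0.024.

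For the 67 other replication genes, the counts at least 2-fold higher and lower were 12 and 2 with the same sum, 4 and 5 at the same upper quartile, 3 and 5 with the median set to 0, 0 and 4 after length centring, and 0 and 0 after length and level centring and at a 4-fold threshold. Their higher count was 2 with a pseudocount of 0.1 and 0 with one of 5. Their lower count was 7 with a pseudocount of 5, where orc-4, psf-2 and T12F5.1 no longer passed 2-fold. Their median turned to 0.30 at equal sums and to 0.016 at equal upper quartiles. List medians that turned sign were, with the same sum, origin recognition 0.36, clamp loader 0.28, helicase unloading 0.36 and chromatin assembly 0.19. With the same upper quartile, origin recognition was 0.071 and helicase unloading 0.076, and with the median set to 0 they were 0.031 and 0.033. Length centring turned polymerases to -0.093. Length and level centring turned them to -0.16, origin recognition to 0.10, helicase unloading to 0.059 and chromatin assembly to 0.13. The nucleotide supply median came inside 2-fold, at -0.53 with the same sum, -0.82 at the same upper quartile, -0.86 with the median set to 0, -0.75 after length centring and -0.51 after length and level centring. The cause of these changes was not tested beyond the shift that each scale makes.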
